A study of Mus musculus with 5 samples.

Results

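Promoter contacts spanning at least 300 kb were examined in 2 supporting cell types of the mouse fetal gonad. They were the interactions of the extended-bait table whose bait lies on chromosomes 1 to 9 and whose ends, measured between bin midpoints, are 300 kb or more apart. The rule kept 1072 contacts of the 51777 listed, and of the 50644 cis contacts on these autosomes. Sertoli cells (supporting cells of the testis) were sorted from E13.5 embryonic gonads by the Sox9IRES-GFP reporter (3 libraries). Pre-granulosa cells (their counterparts in the ovary) were sorted at the same stage by the Enh8-mCherry reporter (2 libraries). Each library was made from about 100000 sorted cells, and the labels name no other allele, treatment or pooling of animals. Each contact carries 1 CHiCAGO score per cell type, with the libraries of that cell type behind 1 column. CHiCAGO compares the read pairs between a bait and another bin with a background that falls with distance, so its score is a weight of evidence and not a contact frequency. A score of 5 or more is a call, and each listed contact passed this in at least 1 cell type. No replicate value, read count or depth stands behind the scores here, so no test between the cell types could be made. Intervals given below are 95% Wilson intervals for shares and cover counting error only, and neighbouring bins share signal.

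Gene promoters in mammals can be controlled by enhancers that lie far away on the same chromosome, and genes encoding developmental transcription factors are known for large gene-poor surroundings that hold such elements. Distant sites meet when chromatin folds into loops and domains. Many loops are anchored where the zinc finger protein CTCF stops the ring-shaped cohesin complex as it extrudes DNA, and others join promoters or regions held by the Polycomb repressors. Capture Hi-C reads these meetings from ligated DNA and does not measure expression, so the identity of the sorted cells cannot be checked against marker RNA in these tables.

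The promoters of the contacts that lead each class are printed first, as the 250 bases upstream of the RefSeq start (GRCm38.p6, the patch of the mm10 build that the submitters' processing notes name), 5′ to 3′ on the gene's strand. Ttc12 (chr9:49486226-49486475, minus strand) belongs to the highest-scoring contact called in both cell types. The downstream (chr3:30013205-30013454) and upstream (chr3:30509760-30510009) promoters of Mecom, both on the minus strand, are the ends of a contact within 1 gene. Gnas (chr2:174284070-174284319, plus strand) and Ankrd60 (chr2:173578274-173578523, minus strand) lead the Sertoli-only contacts, and Map9 (chr3:82357822-82358071, plus strand) leads the pre-granulosa-only contacts. Capitals mark matches, on either strand, of a CTCF-type core (CC, then 3 bases of any kind, then AGGGGGC), of the GC box GGGCGG, of the CCAAT box, and of the TATA box as TATAAA. Overlapping matches of different motifs were each counted.
Ttc12: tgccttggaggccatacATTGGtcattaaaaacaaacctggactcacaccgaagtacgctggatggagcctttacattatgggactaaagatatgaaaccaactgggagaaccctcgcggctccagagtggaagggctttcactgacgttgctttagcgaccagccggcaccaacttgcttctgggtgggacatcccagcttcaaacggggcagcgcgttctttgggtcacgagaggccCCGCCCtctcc
Mecom, downstream promoter: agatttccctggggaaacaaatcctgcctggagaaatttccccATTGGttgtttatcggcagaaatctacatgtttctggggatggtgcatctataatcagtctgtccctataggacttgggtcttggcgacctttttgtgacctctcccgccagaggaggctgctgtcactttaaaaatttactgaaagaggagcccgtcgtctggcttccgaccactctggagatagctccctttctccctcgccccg
Mecom, upstream promoter: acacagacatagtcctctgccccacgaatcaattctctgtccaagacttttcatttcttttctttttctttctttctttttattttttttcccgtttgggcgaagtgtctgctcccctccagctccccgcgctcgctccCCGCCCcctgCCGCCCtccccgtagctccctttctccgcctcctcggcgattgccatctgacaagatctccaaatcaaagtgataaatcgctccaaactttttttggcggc
Gnas: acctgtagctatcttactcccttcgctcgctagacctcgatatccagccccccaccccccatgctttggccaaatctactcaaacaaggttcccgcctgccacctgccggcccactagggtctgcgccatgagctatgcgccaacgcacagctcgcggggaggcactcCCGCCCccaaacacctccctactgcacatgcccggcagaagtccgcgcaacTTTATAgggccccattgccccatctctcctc
Ankrd60: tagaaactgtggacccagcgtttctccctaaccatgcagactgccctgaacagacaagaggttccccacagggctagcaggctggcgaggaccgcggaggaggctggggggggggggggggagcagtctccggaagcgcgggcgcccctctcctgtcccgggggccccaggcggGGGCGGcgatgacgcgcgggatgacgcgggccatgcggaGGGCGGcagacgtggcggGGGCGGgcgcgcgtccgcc
Map9: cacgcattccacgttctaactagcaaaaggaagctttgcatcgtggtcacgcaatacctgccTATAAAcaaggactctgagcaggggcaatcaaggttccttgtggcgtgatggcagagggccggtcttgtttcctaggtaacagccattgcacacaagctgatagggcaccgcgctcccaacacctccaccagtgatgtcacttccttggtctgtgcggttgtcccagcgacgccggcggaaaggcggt

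None of these 6 stretches holds the CTCF-type core. The Ankrd60 promoter holds 3 GC boxes at a GC content of 73.6%, and the upstream Mecom promoter holds 2. Among all 32851 RefSeq promoters of the table, 32.7% hold a GC box, 33.8% a CCAAT box, 12.4% a TATA box and 1.17% the CTCF-type core in the same window. A match is a description of the letters and not a site of binding.

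The CTCF-type core was looked for in every promoter that could be placed in a bait bin. Of the 87 bins with a placed promoter and a long contact called in both cell types, 7 held it (8.05%, 3.95 to 15.7). Of all 421 such bins with any long contact 11 held it (2.61%, 1.47 to 4.62), and of the 5931 bins without a long contact 122 held it (2.06%, 1.73 to 2.45). This motif was chosen after the scores had been seen, and bin sequence outside the placed promoters could not be searched at either end. The 7 bins belong to Nppc, Ntmt1, Rbpjl, Cep135, Rchy1, Mmaa and Cpne4, and 4 of their promoters are shown. They are Rbpjl (chr2:164402944-164403193, plus strand), Cep135 (chr5:76588449-76588698, plus strand), Rchy1 (chr5:91963069-91963318, minus strand) and Cpne4 (chr9:104569405-104569654, plus strand). Capitals are as above, and in Rchy1 the core overlaps a GC box.
Rbpjl: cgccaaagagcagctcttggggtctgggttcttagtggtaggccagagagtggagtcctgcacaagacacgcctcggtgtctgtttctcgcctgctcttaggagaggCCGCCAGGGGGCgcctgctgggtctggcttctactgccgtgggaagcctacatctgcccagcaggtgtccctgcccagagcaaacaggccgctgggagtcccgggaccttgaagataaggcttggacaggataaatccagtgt
Cep135: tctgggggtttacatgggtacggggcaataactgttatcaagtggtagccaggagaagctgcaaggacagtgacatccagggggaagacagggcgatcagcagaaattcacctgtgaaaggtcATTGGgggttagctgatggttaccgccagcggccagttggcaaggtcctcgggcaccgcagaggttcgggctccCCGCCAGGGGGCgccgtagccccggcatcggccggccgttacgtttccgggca
Rchy1: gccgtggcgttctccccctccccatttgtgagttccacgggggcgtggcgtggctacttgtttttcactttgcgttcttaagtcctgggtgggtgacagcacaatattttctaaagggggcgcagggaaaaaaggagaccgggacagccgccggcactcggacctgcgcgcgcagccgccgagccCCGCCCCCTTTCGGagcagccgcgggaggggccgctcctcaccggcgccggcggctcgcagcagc
Cpne4: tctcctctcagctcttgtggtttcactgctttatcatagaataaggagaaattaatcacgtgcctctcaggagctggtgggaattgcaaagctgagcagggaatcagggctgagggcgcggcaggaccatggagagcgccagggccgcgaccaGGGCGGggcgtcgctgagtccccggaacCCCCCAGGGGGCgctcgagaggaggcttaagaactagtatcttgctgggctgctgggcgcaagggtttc

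Rbpjl, which encodes a relative of the Notch effector RBPJ, met the promoter of the Hippo pathway kinase gene Stk4 304 kb away, with scores of 14.6 in Sertoli and 14.1 in pre-granulosa cells and 12 protein-coding genes wholly between them. Cep135, a centriole gene, met the promoter of Aasdh over 316 kb at 12.7 and 9.90. Rchy1, a ubiquitin ligase gene, met Parm1 over 446 kb at 7.99 and 7.44. Cpne4, encoding a calcium-dependent membrane-binding copine, reached 822 kb into the gene body of Nek11 at 9.71 and 8.95. In these 4 contacts the scores of the cell types lay within 3 units of each other. Of the bins not shown, Nppc had its shared contact at 15.0 and 8.57, farther apart. Those of Ntmt1 and Mmaa stood at 8.96 and 8.37 and at 6.90 and 9.07.

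Of the 1072 long contacts, 783 (73.0%, 70.3 to 75.6) were called in Sertoli cells and 496 (46.3%, 43.3 to 49.3) in pre-granulosa cells. Among all autosomal cis contacts listed, 78.7% were called in Sertoli and 55.9% in pre-granulosa cells (78.8% and 56.1% under 300 kb). Both cell types called 207 long contacts (19.3%, 17.1 to 21.8), against 34.6% of all autosomal cis contacts and 34.9% of those under 300 kb. Sertoli cells alone called 576 (53.7%), where the share over all contacts was 44.1% and under 300 kb 43.9%. Pre-granulosa cells alone called 289 (27.0%), where these were 21.3% and 21.2%. The long contacts were thus more often listed for 1 cell type than the shorter ones, by more than the counting intervals. Shared contacts made up 26.4% of the long Sertoli calls and 41.7% of the long pre-granulosa calls, against 44.3% and 62.2% under 300 kb. With the 28301 highest-scoring contacts of each cell type taken over all distances, so that both have equal numbers of calls, 528 long contacts were called in Sertoli and 496 in pre-granulosa cells, and Sertoli-only contacts fell to 353 against 321 for pre-granulosa cells.

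The share called in both cell types did not step at 300 kb. It was 43.0% under 50 kb, 29.0% from 50 to 100 kb, 23.0% from 100 to 200 kb and 20.7% from 200 to 300 kb. Beyond the limit it was 20.2% of 653 contacts from 300 to 400 kb, 21.9% of 215 from 400 to 500 kb and 13.0% of 146 from 500 to 750 kb. At 1 Mb or more, 4 of 30 contacts were called in both, 19 in Sertoli cells only and 7 in pre-granulosa cells only. The decline therefore lay mainly below 200 kb, and the counts beyond 750 kb were too small to order the classes. Just inside the limit, the 101 contacts from 300 to 310 kb were split into 21 shared, 54 Sertoli-only and 26 pre-granulosa-only. Just outside it, the 96 contacts from 290 to 300 kb held 23, 45 and 28.

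**Figure D1:**
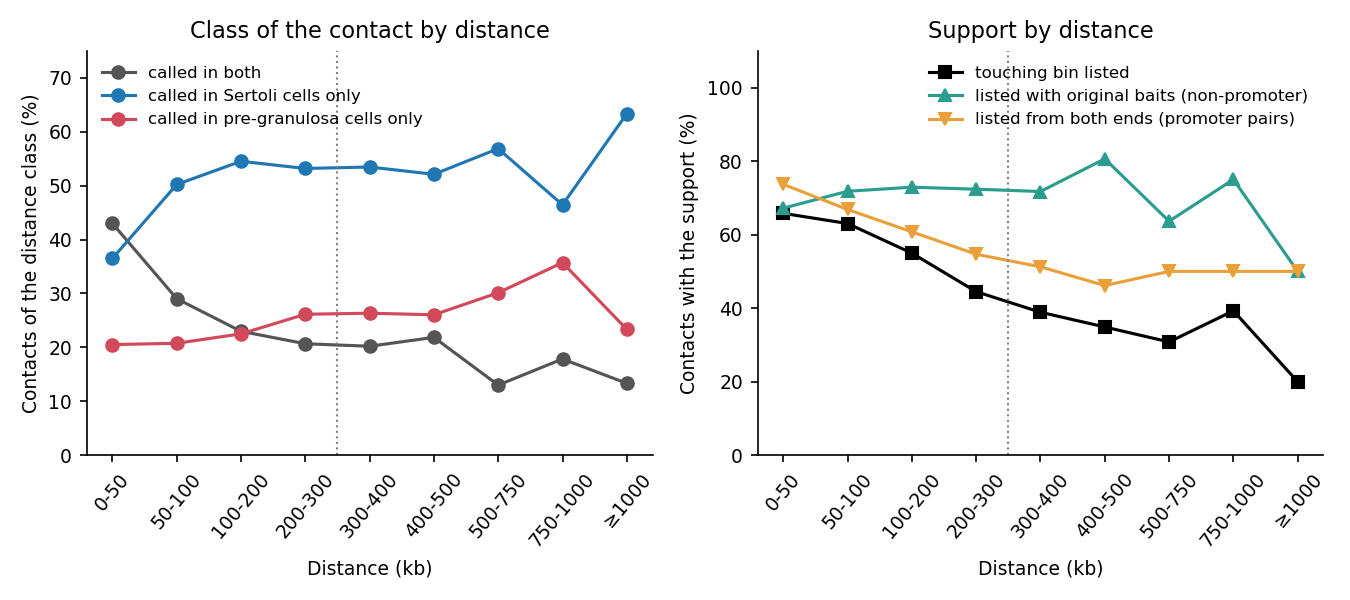
Left, share (%) of listed autosomal cis contacts called in both cell types or in 1 of them, by distance class in kb; right, share with a touching listed bin, of non-promoter contacts listed with the original baits, and of promoter pairs listed from both ends. The dotted line marks 300 kb; the shared class falls from 43.0% to 20.7% before it and stays between 13.0% and 21.9% after it, while the original-bait share is 71.7% at 300 to 400 kb against 72.4% at 200 to 300 kb.

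Median distance was 377 kb over all long contacts and hardly differed between the classes, at 376 kb for shared, 377 kb for Sertoli-only and 379.7 kb for pre-granulosa-only contacts, whose intervals overlap. Long contacts began at 696 of 11063 promoter bins (6.29%, 5.85 to 6.76). Of these bins 513 had 1, 100 had 2, 48 had 3 and 35 had 4 or more. A median of 2 protein-coding genes lay wholly between the ends, and 194 contacts (18.1%) spanned none. Only 20 contacts (1.87%) ended in the body of their own gene, and 6 joined promoters of the same gene, namely Mecom (4) and Schip1 (2). Other ends were promoter bins in 588 contacts (54.9%), against 54.8% under 300 kb. Where the other end was no promoter, 241 of 484 (49.8%) lay in the body of a protein-coding gene. By chromosome, long contacts were 1.09% of the cis contacts on chromosome 8 and 3.03% on chromosome 6.

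Scores showed how far the classes stand apart. Shared contacts had median scores of 9.12 in Sertoli and 8.24 in pre-granulosa cells. Sertoli-only contacts had medians of 6.44 and 0.604, and pre-granulosa-only contacts 0.308 and 6.27 in the same order. The calls of 1 cell type thus lay close above the threshold, as they did under 300 kb, where the calling cell type had medians of 6.44 and 6.12. The other cell type, however, was lower at long range, since the medians under 300 kb were 2.55 in pre-granulosa and 2.97 in Sertoli cells. A score of exactly 0 in pre-granulosa cells stood beside 240 of the 576 Sertoli-only calls (41.7%), and a 0 in Sertoli cells beside 128 of the 289 pre-granulosa-only calls (44.3%). Of all Sertoli calls, 30.7% were listed at 0 in the other column at long range, and of all pre-granulosa calls 25.8%. These zeros rose gradually with distance and did not begin at 300 kb. Among Sertoli calls they were 0.193% under 50 kb, 7.68% from 100 to 200 kb, 17.8% from 200 to 300 kb and 27.2% from 300 to 400 kb. Among pre-granulosa calls they were 10.8% from 200 to 300 kb and 19.4% from 300 to 400 kb. Whether such a 0 means no read pair or no usable value cannot be told from the table. Scores of 10 or more in each calling cell type were reached by 44 shared (21.3%), 67 Sertoli-only (11.6%) and 24 pre-granulosa-only contacts (8.30%, 5.64 to 12.1). Under 300 kb the shares were 22.9%, 10.7% and 4.93%.

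**Figure D2:**
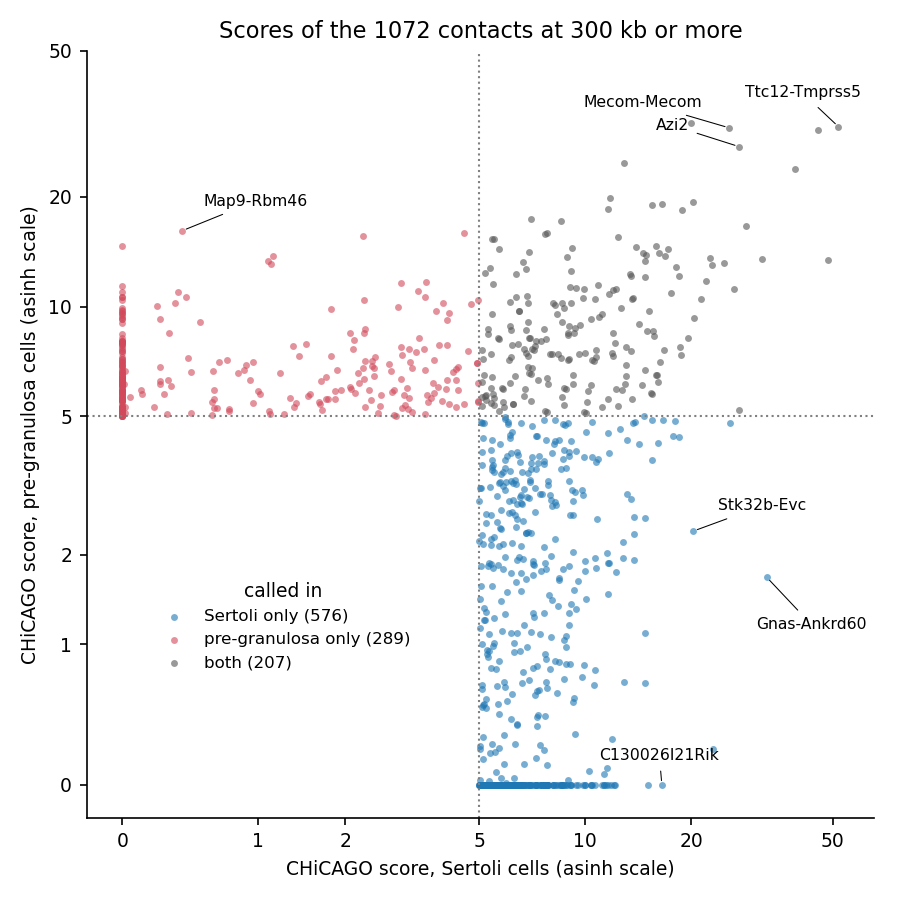
CHiCAGO score in Sertoli cells (x) against pre-granulosa cells (y) for each long contact, on inverse hyperbolic sine (asinh) axes; dotted lines mark the threshold of 5. Shared contacts (207, grey) fill the upper right with Ttc12-Tmprss5 at 51.9 and 31.1, and 240 Sertoli-only (blue) and 128 pre-granulosa-only (red) contacts lie on the 0 of the other axis.

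Whether a contact recurs nearby was asked in 3 ways. A touching contact shares 1 bin and borders at the other end; 391 long contacts had one in the list (36.5%, 33.6 to 39.4), against 62.1% under 300 kb. This share also declined gradually, from 65.8% under 50 kb to 44.5% from 200 to 300 kb and 38.9% from 300 to 400 kb. A touching contact was found for 145 of 207 shared contacts (70.0%), 177 of 576 Sertoli-only (30.7%) and 69 of 289 pre-granulosa-only contacts (23.9%). Under 300 kb these shares were 76.8%, 57.9% and 46.8%, and from 200 to 300 kb alone they were 70.6%, 39.4% and 34.2%.

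The table with the original baits, single restriction fragments scored from the same libraries, was the second check, and it lists no long contact between 2 baits. Where several of its entries overlapped a contact, the highest score of each cell type was taken. A pair of original-bait scores given below need therefore not come from 1 entry, and 1 entry can serve neighbouring contacts. Among contacts to non-promoter bins it listed 92 of 108 shared (85.2%), 185 of 250 Sertoli-only (74.0%) and 71 of 126 pre-granulosa-only contacts (56.3%). Under 300 kb the shares were 83.0%, 68.4% and 55.7%, inside the interval of each long class. For promoter other ends the shares were lower at long range in the classes of 1 cell type, at 11.7% (8.61 to 15.6) against 21.9% for Sertoli-only and 5.52% (2.93 to 10.2) against 13.4% for pre-granulosa-only contacts. Over all contacts 40.6% (37.7 to 43.5) were listed with the original baits at long range and 47.4% under 300 kb. Among non-promoter contacts the share was 63.6% of 66 from 500 to 750 kb and 50% of 14 at 1 Mb or more. Of the class-specific contacts listed there, the other cell type was called in 15 of 223 Sertoli-only (6.73%) and 13 of 80 pre-granulosa-only contacts (16.3%). Both tables rest on the same reads, so this is no second experiment.

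Promoter pairs can be read from either end, which was the last check. Of 588 long promoter-to-promoter contacts, 294 (50%, 46.0 to 54.0) were also listed from the other end, against 68.6% under 300 kb. By distance the share was 73.7% under 50 kb, 54.7% from 200 to 300 kb and 51.2% from 300 to 400 kb, so the nearest shorter contacts were close to the long ones. The remaining 294 were not listed with the other promoter as the bait, and a score under 5 there cannot be told apart from a pair without a score. Their median higher score was 6.05, and that of the contacts listed from both ends was 7.99. Among the 147 pairs listed from both ends, 130 (88.4%, 82.3 to 92.7) had the same class: 27 shared, 68 Sertoli-only and 35 pre-granulosa-only. The other 17 were shared from 1 end and called in 1 cell type from the other. In 0 of the 147 did the ends name opposite cell types, which allows a share of up to 2.55% (upper Wilson limit). Where called from at least 1 end, the score differed between the ends by a median of 1.84 in Sertoli cells (112 pairs) and 1.71 in pre-granulosa cells (79 pairs), and by up to 30.1 and 15.3. These are differences between readings of the same bins in the same libraries. No touching bin, original-bait entry or reverse listing was found for 335 contacts (31.3%): 23 shared (11.1%), 198 Sertoli-only (34.4%) and 114 pre-granulosa-only (39.4%).

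**Figure D3:**
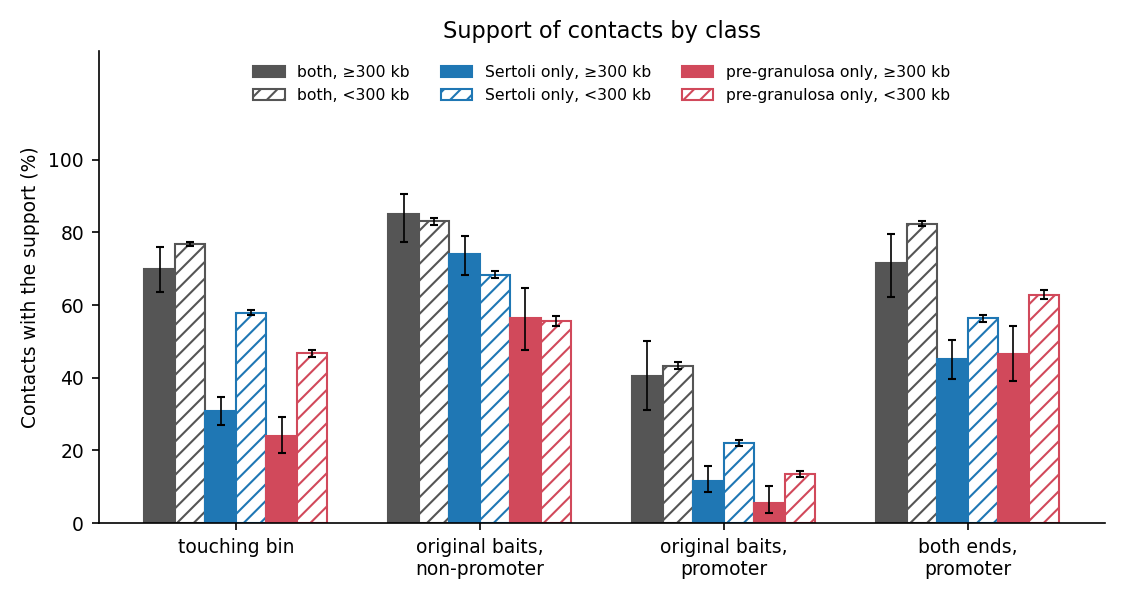
Share (%) of contacts with a touching bin, listed with the original baits (non-promoter and promoter other ends) or listed from both ends, by class; filled bars are contacts at 300 kb or more, hatched bars those under 300 kb, and error bars are 95% Wilson intervals. Touching bins are rarer at long range for Sertoli-only (30.7% against 57.9%) and pre-granulosa-only contacts (23.9% against 46.8%), while original-bait listing of non-promoter contacts is similar (74.0% against 68.4% and 56.3% against 55.7%).

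Contacts that touched or overlapped at both ends were merged into 711 loci, of which 501 were a single contact. By class, 130 loci held a shared contact, 369 were Sertoli-only and 194 pre-granulosa-only, and in 18 each cell type was called in a different bin. A touching bin or original-bait entry was found for 99 of the 130 shared loci (76.2%), 132 of the 369 Sertoli-only loci (35.8%) and 55 of the 194 pre-granulosa-only loci (28.4%). All 18 loci called in different bins had such support. Touching contacts were merged into a locus, and any shared contact made it a shared locus. Loci of 2 or more contacts were thus 82 of the shared, 74 of the Sertoli-only and 36 of the pre-granulosa-only loci. These shares therefore cannot show whether support differs between the classes. The loci named next are the highest-scoring of each class.

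The highest score of any long contact belonged to a shared promoter pair. Ttc12, needed to assemble the dynein arms of cilia, met the promoter bin of Tmprss5, a membrane-bound serine protease gene, across 406 kb and 3 protein-coding genes (chr9:49484377-49490501 with chr9:49078495-49083531). The scores were 51.9 in Sertoli and 31.1 in pre-granulosa cells from Ttc12, and 45.3 and 30.5 from Tmprss5. Around it lay 4 touching bins and 5 original-bait entries, and the highest original-bait scores were 15.9 and 14.7. A neighbouring Tmprss5 bin met Ttc12 in Sertoli cells only, at 13.1 and 3.01.

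Mecom encodes the blood stem cell transcription factor EVI1 and a longer form from the upstream promoter. Its 2 promoters, printed above, met across 496 kb within the gene at 25.5 in Sertoli and 30.8 in pre-granulosa cells, and at 19.9 and 31.7 when read from the downstream promoter. Listed around it were 2 touching bins and 2 original-bait entries (up to 8.37 and 11.6). The contact was thus found in both cell types and from both ends.

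Azi2, an adaptor gene of the innate immune kinase TBK1, reached a bin 442 kb away at 27.2 and 27.4. That bin lies between the promoter bins of Eomes, which encodes a T-box factor of early mesoderm, and of the Golgi protein gene Golga4. The Golga4 promoter met Azi2 across 454 kb at 24.7 and 13.1, and at 10.4 and 6.10 from Azi2. The Eomes promoter met Azi2 across 431 kb at 10.4 and 9.27. Snrpa1, a U2 spliceosome subunit gene, met Tm2d3 across 365 kb at 39.1 and 23.8, but at 12 and 8.50 from Tm2d3. These contacts were nearly level or higher in Sertoli cells, and for Snrpa1 and Tm2d3 both scores were lower from the second bait.

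Several shared contacts ended away from promoters. Sulf2, encoding an enzyme that trims heparan sulfate, reached 407 kb at 28.5 and 16.6, with original-bait scores of 22.1 and 7.30. Gad1, the gene of the GABA-making glutamate decarboxylase, reached 433 kb into Myo3b at 16.5 and 19.1. Klf3, a Krüppel-like repressor gene, reached 303 kb at 20.3 and 19.3. Itpr1, the gene of an IP3-gated calcium channel, reached 312 kb at 15.5 and 19.0. Each had a touching bin and an original-bait entry. Among shared contacts with neither, high scores were found for Supt20 with Postn (330.5 kb, 13.6 and 10.6) and Phlda2 with Kcnq1 (398 kb, 12 and 11.1).

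Sertoli-only loci were led by Gnas, which encodes the stimulatory G protein alpha subunit at an imprinted locus. Gnas transcripts start in more than 1 bin, and which product the transcripts of each bin encode was not examined. The bin where Gnas-210, Gnas-214 and Gnas-215 start met that of Ankrd60 across 708 kb (chr2:174283886-174290465 with chr2:173576109-173581564). The scores were 32.6 in Sertoli and 1.70 in pre-granulosa cells. From Ankrd60 the scores were 23.0 and 0.229, and 1 touching bin was listed. This pair of bins was called in Sertoli cells only from both ends. The neighbouring Gnas promoter bin met the same Ankrd60 bin across 720.0 kb at 18.7 and 7.40, a shared call, although from Ankrd60 it scored 7.53 and 1.78. Stk32b met Evc, a Hedgehog pathway gene of the cilium, across 416 kb at 20.3 and 2.35, and at 14.8 and 1.10 from Evc. Mest, another imprinted gene, met Klhdc10 across 335 kb at 18.0 and 4.86, close under the threshold in pre-granulosa cells. From Klhdc10 the scores were 5.34 and 1.09, and with the original baits 6.45 and 0.

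Further Sertoli-only contacts had pre-granulosa scores between 0 and 2.57. C130026I21Rik reached 317 kb, into a bin overlapping Sp110 and Sp140, at 16.5 and 0, and at 13.3 and 0 with the original baits. Olfml3, a gene for a secreted glycoprotein, reached 304 kb at 15.1 and 0, and at 13.0 and 0 with the original baits. The bin of 4930412O13Rik and 9230102O04Rik reached 1128 kb at 14.8 and 0.679, and at 6.02 and 0 with the original baits. Jph2, a junctophilin gene, met Gtsf1l across 309 kb at 14.8 and 2.57, and at 13.8 and 2.59 from the other end. Dgkd, a lipid kinase gene, reached Gigyf2 across 523 kb at 13.8 and 1.93. In each of these the bait definition or reading from the other end gave the same cell type where it was listed.

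Pre-granulosa-only loci had scores of up to 16.2 in pre-granulosa cells. Map9, encoding a microtubule-binding protein, met the promoter bin of Rbm46, an RNA-binding protein gene of germ cells, across 508 kb (chr3:82354390-82359826 with chr3:82862965-82868001) at 0.398 in Sertoli and 16.2 in pre-granulosa cells. From Rbm46 the scores were 0 and 7.99, with no touching bin or original-bait entry. A second Map9 promoter bin met the same Rbm46 bin across 487 kb at 10.2 and 5.87, and Rbm46 met a bin between them across 498 kb at 5.09 and 6.20. Both of these were shared, so the pre-granulosa-only call belongs to 1 Map9 bin and not to the pair of genes. Scgb1c1 met Rnh1, the ribonuclease inhibitor gene, across 325 kb at 2.28 and 15.7, and at 0.423 and 10.6 from Rnh1. Lysmd4 met the bin of Lrrc28 and Ttc23 across 424 kb at 1.13 and 13.8, and at 0 and 9.25 from the other end. These 3 pairs of bins were called in pre-granulosa cells only from both ends, without any touching bin.

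Ccdc82 reached 469.5 kb at 4.52 and 15.9. With the original baits it scored 5.49 and 14.9, so it was called in both cell types there. The bin of 4930558K02Rik reached 325 kb into Dnm3 at 1.09 and 13.3, but at 8.43 and 9.02 with the original baits. Its 3 other long contacts into Dnm3, at 336, 341 and 352 kb, were also pre-granulosa-only, and with the original baits they stayed so, at 4.65 and 10.8, 4.65 and 10.7, and 3.91 and 7.03. Dcaf17 reached 349 kb at 2.91 and 9.99, and its Sertoli score with the original baits was 5.44. For the contacts of Ccdc82 at 469.5 kb, Dcaf17 at 349 kb and 4930558K02Rik at 325 kb, the restriction to pre-granulosa cells held for the extended baits only. Sh3glb1, an endophilin gene, met Odf2l across 412 kb at 0 and 11.4, at 0 and 5.83 from Odf2l and at 0 and 6.64 with the original baits. Tmx4 reached 689 kb into Plcb1 at 0.225 and 10, and at 1.04 and 9.75 with the original baits.

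Several promoter bins met a whole stretch of bins. The class counts of these and the next bins stand beside 19.3% shared, 53.7% Sertoli-only and 27.0% pre-granulosa-only over all long contacts. Of all long Sertoli calls, 30.7% stood at 0 in pre-granulosa cells. Bins of 1 stretch share signal, so the counts are not independent. Wnk1, encoding a kinase that controls ion cotransport, had 13 long contacts in 6 loci between 388 and 462 kb on both sides, of which 2 were shared, 10 Sertoli-only and 1 pre-granulosa-only, and 7 stood at 0 in pre-granulosa cells. Its highest Sertoli score, 16.8 beside 7.62 in pre-granulosa cells, lay over Wnt5b and Fbxl14, and its highest pre-granulosa score, 12.7 beside 6.83 in Sertoli cells, lay in Wnt5b 425 kb away. With the original baits the former scored 7.86 and 3.60, a Sertoli call only. The latter had no original-bait entry and no touching bin. On the other side the highest Sertoli score was 13.8 within Ccdc77, beside 2.31, and the highest pre-granulosa score 7.64 in Kdm5a, beside 2.12. Read from promoter bins on that side, Ccdc77 met Wnk1 at 14.8 and 6.69 and Kdm5a met Wnk1 at 15.2 and 9.76, both shared. Gigyf2, a gene of translational repression, had 12 (3 shared, 9 Sertoli-only), with the highest Sertoli score in Atg16l1 at 376 kb (16.0 and 6.51) and the highest pre-granulosa score in the same gene at 365 kb (5.22 and 12.4). With the original baits the contact at 376 kb scored 9.14 and 6.22. That at 365 kb scored 6.72 and 2.04 there, a Sertoli call only. Of the 12, 5 lay in Usp40 between 544 and 584 kb.

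The bin shared by Taf5l and Urb2 had 10 long contacts between 301 and 365 kb (1 shared, 8 Sertoli-only, 1 pre-granulosa-only), across Galnt2 and beyond it. The highest reached 25.7 in Sertoli and 4.80 in pre-granulosa cells, and 28.6 and 4.23 with the original baits, with a shared bin at 328 kb in the same locus at 17.2 and 14.4. Class thus changed between bins of 1 locus. Cdk15 had 10 contacts across Gm973 (5 shared), all with a touching bin and an original-bait entry. Lmntd1 had 10 toward Rassf8, a Ras-association domain gene (7 shared, 3 Sertoli-only). Its contact with a Rassf8 promoter bin at 384 kb scored 18.5 and 4.37 from Lmntd1 but 48.6 and 13.4 from Rassf8, so it was Sertoli-only from 1 end and shared from the other.

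**Figure D4:**
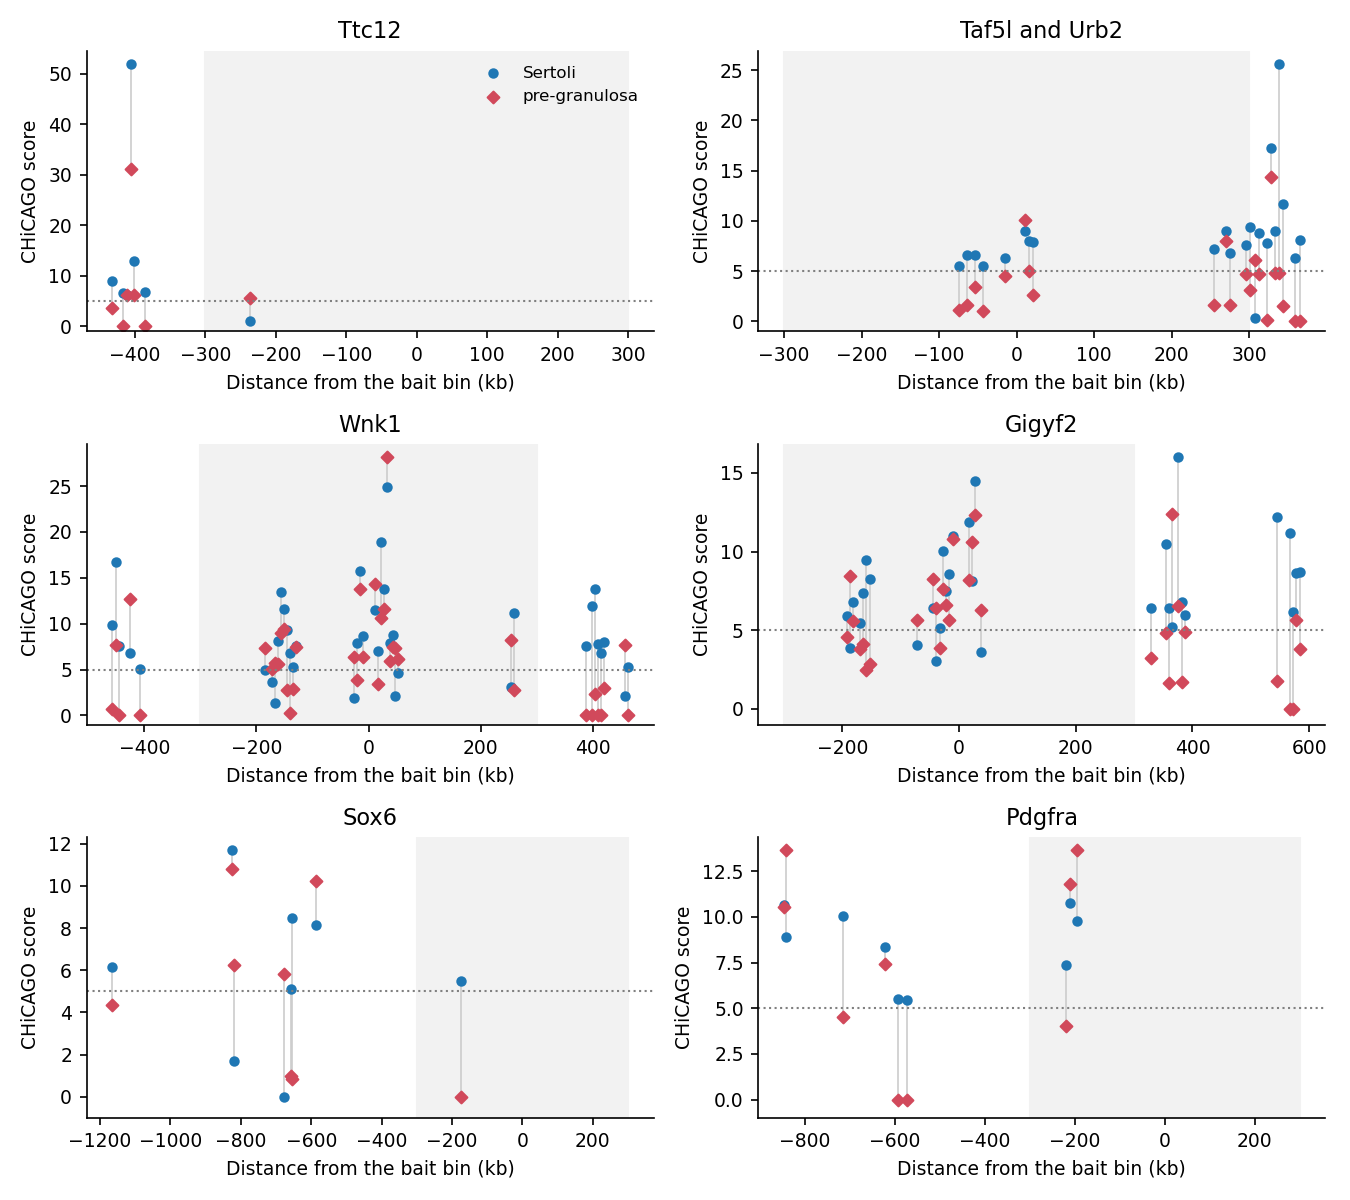
CHiCAGO scores of every listed contact of 6 promoter bins against distance from the bait in kb, circles for Sertoli and diamonds for pre-granulosa cells, joined by a line per contact; the dotted line is the threshold of 5 and the grey band is the region under 300 kb. Long contacts of Wnk1 and Gigyf2 lie in clusters near 400 kb and 550 kb that are mostly higher in Sertoli cells, whereas those of Pdgfra near 846 kb reach 8.91 to 13.7 in both.

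A group of promoters on chromosome 9, chosen after the values were seen, met as blocks. Between Manf, a secreted neurotrophic factor gene, and Cish, a cytokine signalling inhibitor gene (chr9:106890177-107297083), 8 promoter bins of Manf, Dock3, Mapkapk3 and Cish gave 23 long contacts of 14 bin pairs. Of these 7 were shared, 16 Sertoli-only and 0 pre-granulosa-only, and 19 had a touching bin. Over all long contacts 19.3% were shared, 53.7% Sertoli-only and 27.0% pre-granulosa-only, and 36.5% had a touching bin. Manf met Mapkapk3, a stress kinase gene, across 396 kb at 14.8 and 13.3, and a second Mapkapk3 promoter bin across 385 kb at 10.4 and 0. A second block on chromosome 7 (chr7:143104099-143480409) joined the potassium channel gene Kcnq1 and the transporter gene Slc22a18, both in an imprinted region. The 12 long contacts of its 3 promoter bins were 8 shared, 2 Sertoli-only and 2 pre-granulosa-only, to be read beside the same shares, with the highest Sertoli score at 19.6 (8.24 in pre-granulosa cells) from Slc22a18 into the Kcnq1 body, 321 kb away. The highest pre-granulosa score was 14.5 (9.18 in Sertoli cells), from Slc22a18 to a Trpm5 promoter bin just outside this interval, across 376 kb.

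Developmental regulators, a list by symbol of homeobox, Sox, Fox, T-box and related transcription factor genes, had a long contact at 21 of 158 promoter bins (13.3%, 8.86 to 19.5). Their 38 long contacts were 7.57% of their cis contacts, against 2.12% over all promoter bins. Of these 6 were shared, 19 Sertoli-only and 13 pre-granulosa-only, a shared percentage of 15.8% beside 19.3% over all long contacts. Median distance was 588.5 kb, against 377 kb, and 28 of the 38 other ends lay outside protein-coding gene bodies (262 of 1072 over all long contacts). These 2 sets are unlike, since 32 of the 38 met non-promoter bins, against 484 of 1072 over all long contacts. Of those 484 non-promoter ends, 241 lay in a protein-coding gene body. A median of 0 protein-coding genes lay wholly between the ends, and 18.1% of all long contacts had 0 such genes between them. The original-bait table listed 21 of the 38. Among all long contacts, those to non-promoter bins were listed there at 56.3% to 85.2% by class. Signalling ligand and receptor genes had long contacts at 8 of 84 bins (9.52%, 4.91 to 17.7), at a median of 611 kb. Housekeeping genes had them at 10 of 227 (4.41%, 2.41 to 7.92), and neuronal adhesion and ion channel genes at 15 of 193 (7.77%, 4.77 to 12.4). Among these lists of at least 50 bins only the interval of the developmental regulators lay above that of all promoter bins, and their number is small.

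**Figure D5:**
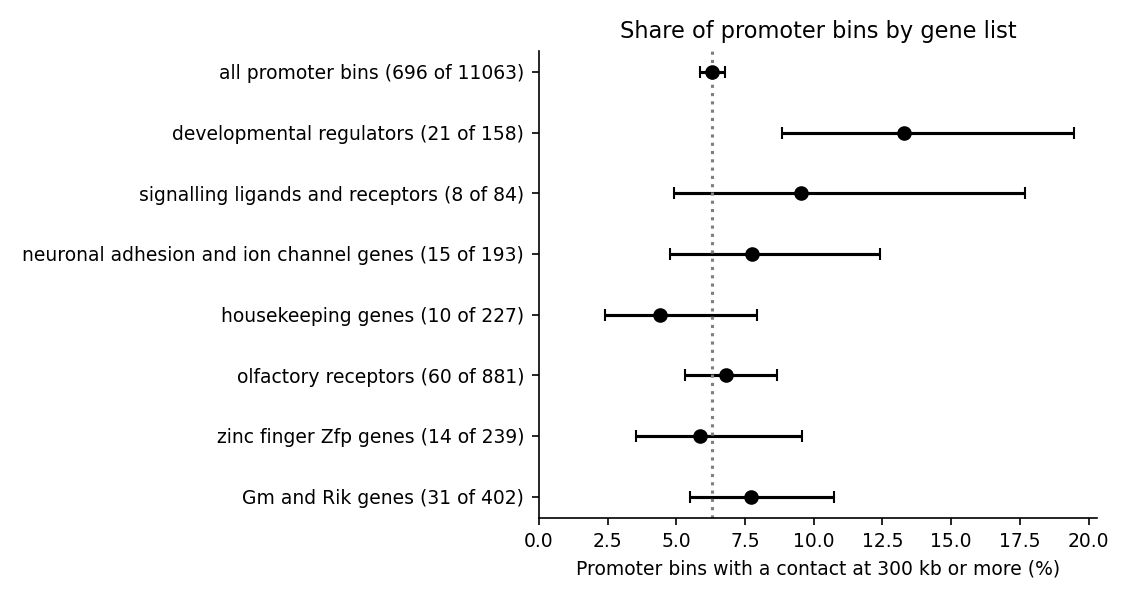
Share (%) of promoter bins with a contact at 300 kb or more for each gene list with at least 50 bins, with 95% Wilson intervals; counts stand in the labels and the dotted line marks the 6.29% of all promoter bins. Developmental regulators stand at 13.3% (8.86 to 19.5), and the other lists plotted have intervals that include the dotted line.

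Tfap2b, encoding the AP-2 beta factor of kidney and neural crest, reached 763.5 kb into gene-free sequence at 15.8 in Sertoli and 14.7 in pre-granulosa cells, with 10.5 and 14.5 from the original baits. Its touching bin at 769 kb was Sertoli-only, at 9.21 and 3.09. The promoter bin of Sox6, an SRY-related factor gene, which also holds 1110004F10Rik, had 7 long contacts from 588 to 1165 kb. The contact at 825 kb scored 11.7 and 10.8, and that at 588 kb 8.14 and 10.2. The others were Sertoli-only (3) and pre-granulosa-only (2). Lef1, a Wnt effector gene used as a pre-granulosa gene, reached 347 kb at 5.11 and 7.60 and 399.9 kb at 0 and 5.75.

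Homeobox clusters gave contacts of both kinds. Hoxd8 met a bin 436 kb away at 6.82 and 7.47, and Hoxd4 met the bins on either side of it at 0 and 6.56 and at 6.56 and 0.943. Evx2, at the end of the same cluster, met 3 touching bins in the opposite direction between 584 and 595 kb, at 7.27 and 4.41, 7.34 and 4.41, and 5.04 and 0.228. All 3 were Sertoli-only, but the 2 farther ones lay close under the threshold in pre-granulosa cells. Hoxa2 and Hoxa9 met the same bin (chr6:51175559-51182179) across 987 and 1047.5 kb in pre-granulosa cells only, at 8.03 and 5.87, both with 0 in Sertoli cells. Foxp1 reached 506 kb at 6.86 and 0, Bnc2 481 kb at 5.65 and 0, and Foxc2 398 kb at 6.33 and 2.62, each called again in Sertoli cells with the original baits. Lhx2, a LIM homeobox gene of the early gonad, reached 432 kb into Dennd1a at 0 and 10.7, and at 2.03 and 5.93 with the original baits.

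Of the gonadal gene lists, the 6 Sertoli bins had no long contact, and the 9 pre-granulosa bins had 7 at 4 bins (44.4%, 18.9 to 73.3), of Fgfr2, Lef1 and Pdgfc. Of these 7, 5 were Sertoli-only, 1 was shared and 1 pre-granulosa-only. Fgfr2, the fibroblast growth factor receptor gene, reached 3 bins 493 to 611.5 kb away at Sertoli scores of 5.53 to 7.30 and a pre-granulosa score of 0, each listed again with the original baits at 5.49 to 8.88 and 0. Pdgfc, a growth factor gene, reached Gask1b across 1152 kb at 5.13 and 0 and Ctso across 897 kb at 5.14 and 0, without other support. Over all promoter bins 6.29% (5.85 to 6.76) had a long contact, below the interval of the pre-granulosa list, which rests on 9 bins, and 2 of its 4 bins with a long contact are neighbours at Fgfr2. Sertoli-only contacts were 53.7% of all long contacts.

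Pdgfra, the receptor for platelet-derived growth factors and a mark of gonadal interstitial cells, had 8 long contacts from 2 neighbouring promoter bins, 4 of them shared. From 1 bin it reached 2 touching bins in Scfd2, 841 and 846 kb away, at 8.91 and 13.7 and at 10.7 and 10.5. With the original baits the nearer one scored 0 and 5.80, a pre-granulosa call only, and the farther one was not listed. The promoter bin of Scfd2 and Fip1l1 was met from both Pdgfra bins, at 5.52 and 15.3 and at 8.37 and 7.42. From that end the scores were 5.45 and 15.3 and 13.6 and 10.5, so both stayed shared. Tgfb2, a transforming growth factor gene, reached 522 kb in pre-granulosa cells (0 and 6.82) and 1024 kb in Sertoli cells (5.44 and 4.30). Fgf7 reached 399 and 471 kb in Sertoli cells, at 6.75 and 5.18, with 0 in pre-granulosa cells both times.

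Multigene families need care, since reads of near-identical copies can be placed in the wrong copy. Olfactory receptor genes had 73 long contacts at 60 of 881 bins (6.81%, 5.33 to 8.67), near the share of all promoter bins, and 61 joined 2 receptor genes. Of the 73, 2 were shared (2.74%, against 19.3% over all long contacts), 40 were Sertoli-only and 31 pre-granulosa-only, and 44 stood at 0 in 1 cell type. Among all 1072 long contacts, 53.7% were Sertoli-only and 27.0% pre-granulosa-only, and 240 and 128 of these stood at 0 in the other cell type. Since 66 of the 73 were promoter pairs, the original-bait table could rarely list them. A touching bin was found for 13 of the 73 (391 of 1072 over all long contacts, 36.5%). From both ends 28 of the 66 promoter pairs were listed (294 of 588 over all long promoter pairs). The highest score was 12.1. Zfp zinc finger genes had long contacts at 14 of 239 bins (5.86%, 3.52 to 9.59). Of these 21 contacts 0 were shared, 16 Sertoli-only and 5 pre-granulosa-only, beside 19.3%, 53.7% and 27.0% over all long contacts.

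At 1 Mb or more there were 30 contacts, and 11 of them had no touching bin, original-bait entry or reverse listing, beside 335 of all 1072 long contacts (31.3%). The longest, of the glucose transporter gene Slc5a9, reached 2408 kb at 5.23 and 0 without any. Gm14393 met Gm14412 across 2254 kb at 22.5 and 13.6, and at 22.8 and 13.0 from the other end. Mup7, of the major urinary protein family, met bins in Mup5 1777 and 1782 kb away at 5.13 and 7.18 and at 5.71 and 14.4. Klre1 met Magohb across 1713 kb at 14.3 and 4.18, and at 13.1 and 4.30 from Magohb. The Gm, Mup, Klr and olfactory receptor ends belong to families of similar genes, and misplaced reads were not tested. Setmar met Crbn across 1266 kb at 3.52 and 11.7. Epn1 met Zfp444, of the zinc finger family, across 1093 kb at 7.29 and 0, and at 6.50 and 0 from Zfp444.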

How the data were processed

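The authors deposited CHiCAGO scores of capture Hi-C, in 1 column per cell type that pools its libraries (3 Sertoli, 2 pre-granulosa), for baits of single fragments and for extended baits of about 5 kb (median 5323 bp). The score is unitless, and every listed contact has a score of at least 5 in 1 cell type. How libraries were combined, the filters and tool versions are not given in the sources used here, and the build is mm10 per the submitters' processing notes. The deposited distance column, in bp between bin midpoints, chose the members. DpnII digestion is named in the labels' protocols.

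Contacts, touching bins, original-bait entries (any overlap of both ends), reverse listings and loci were counted with python 3.11.15, pandas 2.3.3 and scipy 1.17.1. The counting was tested on simulated data. Genes and promoter sequences came from RefSeq tables of GRCm38.p6; 10967 of 11252 bait genes found there lay within 2 kb of their bait bin. Because each cell type has 1 value, no test, SD or replicate check was possible, and depth is unknown. Named contacts are the highest-scoring 8 loci with and 3 without a touching bin or original-bait entry per class, the 5 longest, the 5 promoter bins with most, and those of the gonadal and developmental lists. Further genes were named after their values were seen. Some contacts that this rule names are not reported here. Members and lists were chosen with earlier results of these data known. Alternatives were other thresholds, distances, bait tables and ways of counting.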

Additional observations from a re-analysis of the deposited data

How the results depend on the processing

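No paired analysis was possible because each cell type has 1 pooled column, and leaving out a library was not possible for the same reason. The planned search of whole bins for a CTCF motif, with its orientation at both ends, and its alternatives were not run. No sequence of whole bins was used here, and only the promoter windows were searched. The order of Sertoli over pre-granulosa calls held under each alternative run for both counts. Counts moved most with the threshold and the distance. At a threshold of 7, long contacts called in Sertoli, in pre-granulosa and in both cell types numbered 375, 236 and 108, Sertoli-only and pre-granulosa-only contacts 267 and 128, promoter bins 332, bins of developmental regulators 9, contacts with a touching bin 165 and contacts called again with the original baits 175. At a threshold of 10 the same counts were 157, 97, 44, 113, 53, 142, 4, 82 and 52, and the median distance was 393 kb. With a minimum distance of 250 kb they were 1327, 840, 343, 984, 497, 1122, 36, 694 and 659, with a median of 317 kb. With 500 kb they were 143, 89, 28, 115, 61, 143, 9, 62 and 66, with a median of 649 kb. With the original baits, 491 long contacts were called in Sertoli cells, 198 in pre-granulosa cells, 81 in both and 117 in pre-granulosa cells only, from 338 baits at a median of 362 kb, and the share joining 2 baits was 0%. Each pair of bins counted once put the share between 2 promoter bins at 47.7%. Counted by locus, Sertoli cells called 517 and Sertoli cells alone 369. Equal numbers of calls left 353 Sertoli-only contacts. Requiring less than 1 from the second cell type left 329 Sertoli-only and 172 pre-granulosa-only contacts. Without read counts, what depth limits cannot be given, and a 0 in 1 cell type does not show that the contact is absent there.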

Other observations

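On the X chromosome, outside the 9 autosomes described, 7 contacts spanned 300 kb or more, of which 1 was shared, 3 Sertoli-only and 3 pre-granulosa-only. Within the shared long contacts the Sertoli and pre-granulosa scores had a Spearman rho of 0.36 across 207 contacts, and under 300 kb of 0.49 across 17294 contacts; contacts are not independent, and the scores share baits and bins.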
